A study of Mus musculus with 2 samples.

Results

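The genes described here are 40 mouse genes of DNA replication and the S phase of the cell cycle, taken from a list of gene names and not picked by a threshold on these libraries. The list was chosen with earlier results of these data known, so counts over it are a description. All 40 have a row among the 19394 genes of the matrix. They were measured in 1 droplet single-cell RNA library of cells given panobinostat and in 1 library of cells given vehicle. In the 2281 panobinostat cells these genes together made up 472.4 of every 1000000 unique molecules (UMIs), against 2134 in the 2854 vehicle cells.

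The panobinostat group had 0.2 µM of the drug, an inhibitor of histone deacetylases, for 48 h, and the vehicle group had DMSO for the same time. Both groups were Pax2-lineage renal progenitors of healthy 9-week-old C57Bl/6 mice carrying Pax2.rtTA;TetO.Cre; R26.mT/mG, in which the Pax2 promoter drives the transactivator that turns on Cre, so that recombined cells carry GFP. The labels give 2 mice. Cells grew out of cultured glomeruli for 5 days, were sorted for GFP, plated and starved for 16 h before treatment, so the sort and the culture are common to both groups. With 1 library per treatment no spread between samples could be estimated, no test between treatments was run, and the drug and the library it was measured in cannot be told apart.

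Before a cell copies its DNA, origins of replication are licensed in G1 when Cdc6 and its partners load the ring of Mcm proteins onto chromatin. At the start of S phase Cdc45 and the GINS proteins join that ring to form the moving helicase, and polymerases with the sliding clamp Pcna follow it. Most of these genes are switched on together at the G1/S border by E2F transcription factors, and cells that leave the cycle lose their transcripts. Renal progenitors of the glomerulus are known to divide after injury.

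The panobinostat library held 104188927 UMIs with a median of 42394 per cell, and the vehicle library held 90754967 with a median of 27924 per cell. Levels are given as CPM, the UMIs of a gene summed over all cells of a library per 1000000 UMIs of that library. A UMI marks 1 molecule read at its 3′ end and is not scaled by length, so levels are compared between libraries and not between genes. No 16-base cell barcode occurred in both libraries (0 shared). The lineage markers Pax2 (24.9 CPM with panobinostat and 40.4 CPM with vehicle) and Pax8 (119.9 and 120.2 CPM) were present in both. The whole list of 6 lineage and parietal epithelium markers summed to 4742 CPM with panobinostat and 8709 CPM with vehicle, with Krt8 (1710 and 4587 CPM) and Vcam1 (5.04 and 14.7 CPM) lower. Markers of other cell types that the sort could have let through were low: their lists summed to between 3.19 and 67.8 CPM with panobinostat and between 0.749 and 15.3 CPM with vehicle. With panobinostat the leukocyte list held the highest of these sums, through Cd68 (65.5 CPM with panobinostat and 4.11 CPM with vehicle), a lysosomal protein, while Ptprc, which defines leukocytes, stood at 1.98 and 0.606 CPM. Also higher with panobinostat were Lrp2 of the tubule list (11.7 and 0.650 CPM) and Synpo of the podocyte list (11.8 and 5.86 CPM). None of the markers with a row was at 0 with panobinostat, and those at 0 with vehicle include Wt1 of the podocyte list and Umod of the tubule list. Their part in the values below was not tested.

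A gene was called higher or lower with panobinostat when its ratio of CPM was at least 2-fold, its exact 95% interval (which covers counting error only) excluded equality, and either library had 10 CPM or more of it. By this rule 34 of the 40 S-phase genes were lower, 0 were higher, 5 stayed under 2-fold and 1, Dscc1, missed the floor of 10 CPM. Among all 8872 genes past the floor 11.0% were lower and 9.85% were higher. The log2 ratio was below 0 for all 40 genes, from -8.13 for Pclaf to -0.20 for Ubr7, with a median of -2.40 both for the 39 genes past the floor and for all 40. Across the whole set of 8872 genes the median was -0.07. It was -0.20 with DESeq2 size factors, and the split over all genes was 731 higher and 1249 lower in place of 874 higher and 973 lower. As mean UMIs per cell with no scaling to the library total, the split was 2184 higher (24.3%) and 408 lower (4.53%) of 8997 genes. On that scale 29 of the listed genes were lower and 0 higher, and the calls of Ung (-0.51), Usp1 (-0.98), Chaf1b (-0.58), Slbp (-0.94) and Wdr76 (below the floor, -1.22) ended. In a bulk sum such as this one, fewer cells with a transcript and less of it per cell cannot be told apart, and the values per cell further down bear on that.

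**Figure D1:**
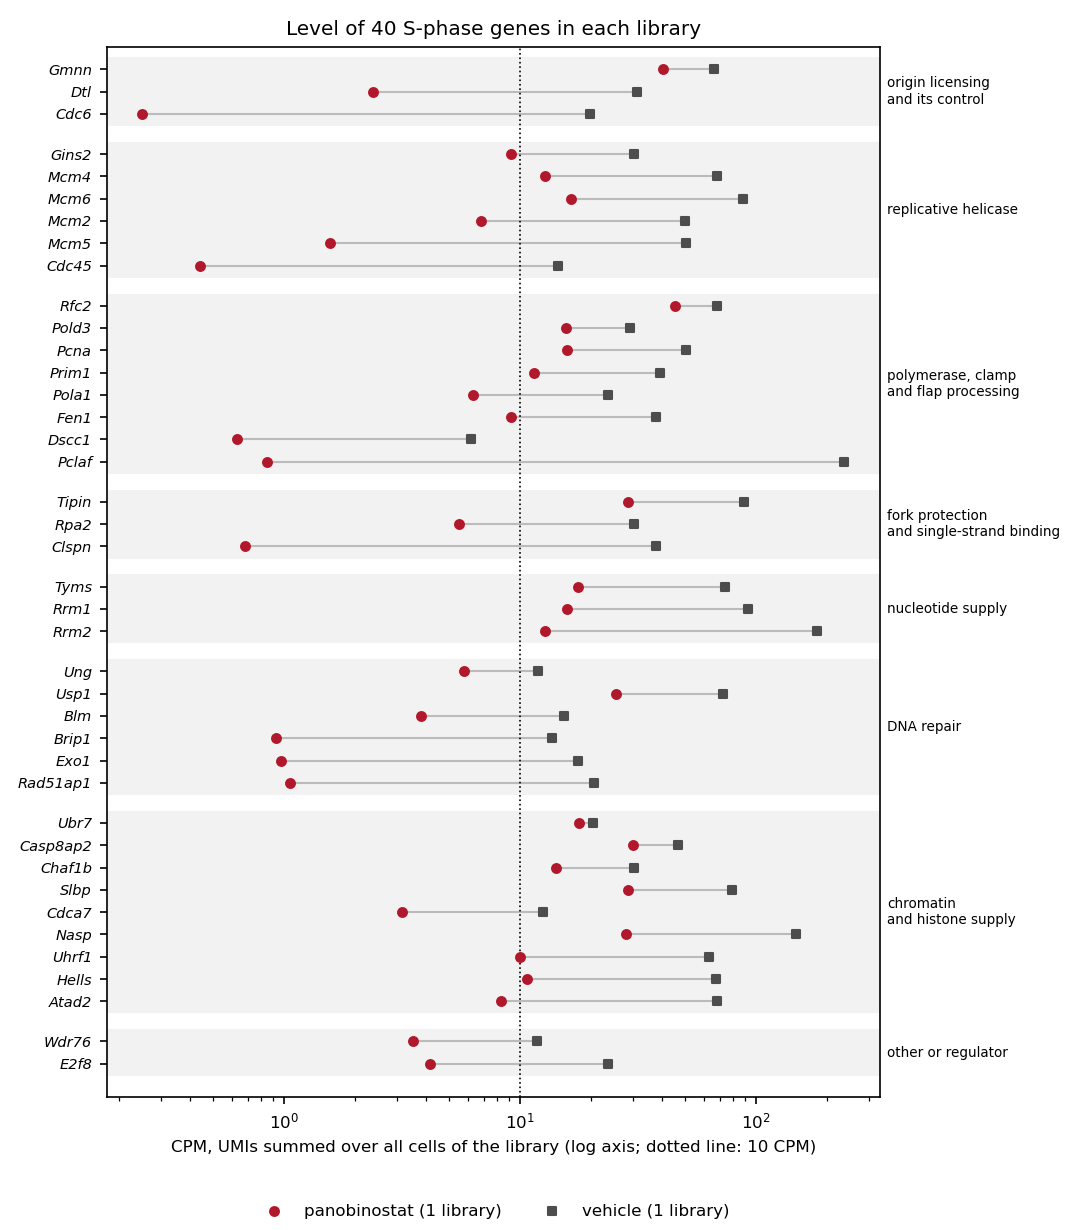
Level of each of the 40 S-phase genes in CPM (log axis), with panobinostat as red circles and vehicle as grey squares, 1 library each, grouped by role. The panobinostat value lies left of the vehicle value for every gene, by the widest margin for Pclaf (0.845 against 236.5 CPM) and the narrowest for Ubr7 (17.7 against 20.4 CPM).

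Of the genes that license origins or police licensing, Cdc6 and Dtl were lower and Gmnn was not called. Cdc6, the loader of the Mcm ring, had 26 UMIs (0.250 CPM) with panobinostat and 1786 UMIs (19.7 CPM) with vehicle, a log2 ratio of -6.30 (95% interval -6.92 to -5.75). Dtl, which directs the destruction of the licensing factor Cdt1 once replication begins, stood at 2.38 CPM with panobinostat and 31.3 CPM with vehicle (log2 ratio -3.72). Gmnn encodes geminin, the inhibitor that keeps Cdt1 from licensing an origin again, and it stood apart from both at 40.3 CPM with panobinostat and 66.2 CPM with vehicle (log2 ratio -0.72, interval -0.77 to -0.66).

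All 6 genes of the replicative helicase were lower. Mcm2, Mcm4, Mcm5 and Mcm6 encode subunits of the ring itself. Mcm5 stood at 1.56 CPM with panobinostat and 50.2 CPM with vehicle, a log2 ratio of -5.01. Its ring partners were less far apart between libraries: Mcm2 stood at 6.82 CPM with panobinostat and 49.8 CPM with vehicle (log2 ratio -2.87), Mcm4 at 12.8 and 68.0 CPM (-2.41), and Mcm6 at 16.5 and 87.9 CPM (-2.42). The intervals of these 3 ratios, which together run from -2.98 to -2.33, do not reach that of Mcm5 (-5.24 to -4.78). Cdc45, which joins the ring at firing, had the lowest ratio of the group, at 0.442 CPM with panobinostat and 14.4 CPM with vehicle (log2 ratio -5.03, interval -5.48 to -4.60). Gins2, a GINS subunit, had the highest, at 9.16 CPM with panobinostat and 30.5 CPM with vehicle (log2 ratio -1.73, interval -1.84 to -1.63).

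Since E2F factors are known to act at such promoters, the promoters of the listed genes were searched for 4 words of the E2F site, TTTCCCGC, TTTCGCGC, TTTGCCGC and TTTGGCGC, on both strands. The windows came from RefSeq on GRCm38.p6 and run from 250 bases before to 50 bases after each start site. A window was found for 31 of the 40 genes, 34 windows in all, and 13 of them (38.2%) held at least 1 word, against 744 of 32851 windows of all genes (2.26%) and 358 of 9007 windows of genes past the floor (3.97%). Most of the lower genes with a window held no word, among them Mcm2 and Rrm2, while Pold3, Casp8ap2 and Ubr7, which were not called, held a word. Stretches of 100 bases that end at or before the start site are given here as examples for Mcm5, Mcm6, Cdc6, Dtl and Hells, which were lower and hold a word, and for Pcna and Rrm2, which were lower and hold none, with every word on either strand in capitals. In Mcm5 and Mcm6 a word on 1 strand overlaps a word on the other, so that 12 capitals in a row hold both.
Mcm5: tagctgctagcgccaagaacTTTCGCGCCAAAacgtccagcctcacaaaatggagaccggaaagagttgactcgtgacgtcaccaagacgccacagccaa
Mcm6: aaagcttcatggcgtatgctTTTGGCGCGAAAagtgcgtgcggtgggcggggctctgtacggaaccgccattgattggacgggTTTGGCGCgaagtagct
Cdc6: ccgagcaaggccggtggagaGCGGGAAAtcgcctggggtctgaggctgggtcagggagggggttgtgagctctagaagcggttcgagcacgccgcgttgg
Dtl: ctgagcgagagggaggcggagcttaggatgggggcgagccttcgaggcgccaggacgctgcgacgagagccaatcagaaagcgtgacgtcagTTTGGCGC
Hells: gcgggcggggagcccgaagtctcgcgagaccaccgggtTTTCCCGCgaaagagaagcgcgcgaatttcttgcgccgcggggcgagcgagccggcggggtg
Pcna: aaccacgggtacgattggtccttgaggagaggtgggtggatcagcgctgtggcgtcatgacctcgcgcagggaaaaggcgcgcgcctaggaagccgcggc
Rrm2: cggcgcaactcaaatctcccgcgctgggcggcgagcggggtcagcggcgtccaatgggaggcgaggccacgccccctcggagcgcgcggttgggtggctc

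These stretches lie, in the order shown, at chr8:75109336-75109435 on the plus strand, chr1:128359736-128359835 on the minus strand, chr11:98907993-98908092 on the plus strand, chr1:191575545-191575644 on the minus strand, chr19:38930890-38930989 on the plus strand, chr2:132253181-132253280 on the minus strand and chr12:24708154-24708253 on the plus strand of GRCm38. A word is a match of letters only, and its absence says only that these letters are not in the window.

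Among the genes of polymerase, clamp and flap processing, 5 of 8 were lower, 2 stayed under 2-fold and Dscc1 missed the floor. Pclaf, a small protein that binds Pcna, had the lowest ratio of all 40 genes, with 88 UMIs (0.845 CPM) with panobinostat and 21464 UMIs (236.5 CPM) with vehicle (log2 ratio -8.13, interval -8.45 to -7.83). Pcna itself was much closer, at 15.8 CPM with panobinostat and 50.4 CPM with vehicle (log2 ratio -1.68). The flap nuclease Fen1 stood at 9.18 CPM with panobinostat and 37.6 CPM with vehicle (-2.04). Polymerase alpha and primase start each new strand, and both listed genes of that complex were lower. Pola1 stood at 6.33 CPM with panobinostat and 23.4 CPM with vehicle (-1.89), and Prim1 at 11.4 and 39.2 CPM (-1.78). Outside the 40 genes, its subunit Pola2 was lower (5.85 and 13.9 CPM, -1.25), while Prim2 stayed under 2-fold (11.4 and 17.9 CPM, -0.65). Not called were Pold3, a subunit of polymerase delta (15.7 and 29.2 CPM, log2 ratio -0.89, interval -0.98 to -0.80), and Rfc2, a subunit of the clamp loader (45.1 and 68.0 CPM, -0.59, interval -0.65 to -0.54). With TMM factors Pold3 was past 2-fold (-1.01). Dscc1, which belongs to an alternative clamp loader for cohesion, stood at 0.633 CPM with panobinostat and 6.19 CPM with vehicle (-3.29, interval -3.68 to -2.92).

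All 3 genes that guard the fork or bind its exposed strand were lower. Clspn, the checkpoint mediator claspin, stood at 0.681 CPM with panobinostat and 37.5 CPM with vehicle (log2 ratio -5.78, interval -6.14 to -5.44). Rpa2, which coats exposed single strands as part of RPA, stood at 5.52 CPM with panobinostat and 30.4 CPM with vehicle (-2.46). Tipin, a partner of Timeless in fork protection, was the closest, at 28.7 CPM with panobinostat and 89.1 CPM with vehicle (-1.63, interval -1.69 to -1.57).

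Nucleotide supply was lower in all 3 of its genes, with sums of 46.1 CPM with panobinostat and 347.6 CPM with vehicle. Ribonucleotide reductase makes deoxynucleotides from a large subunit, Rrm1, and a small one, Rrm2. Rrm2 stood at 12.7 CPM with panobinostat and 181.6 CPM with vehicle (log2 ratio -3.83, interval -3.92 to -3.75), and Rrm1 at 15.8 and 92.3 CPM (-2.55). Tyms, the thymidylate synthase, stood at 17.6 CPM with panobinostat and 73.6 CPM with vehicle (-2.07, interval -2.14 to -1.99).

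All 6 DNA repair genes were lower. Rad51ap1, which acts in homologous recombination, stood at 1.06 CPM with panobinostat and 20.6 CPM with vehicle (log2 ratio -4.29, interval -4.58 to -4.01). The exonuclease Exo1 (0.969 and 17.5 CPM, -4.18) and the helicase Brip1 (0.921 and 13.6 CPM, -3.88), which works with Brca1, were close to it. The helicase Blm stood at 3.81 CPM with panobinostat and 15.4 CPM with vehicle (-2.02), and Usp1, which takes ubiquitin off Pcna and Fancd2, at 25.4 and 72.2 CPM (-1.51). Ung, the glycosylase that removes uracil from DNA, was at the edge of the rule, at 5.80 CPM with panobinostat and 11.9 CPM with vehicle (-1.03, interval -1.18 to -0.89). Its call ended when ratios were centred on the median gene (-0.97) or cells were thinned before summing (-0.98), and over the 91 panobinostat cells without core mitotic UMIs the ratio was -0.45.

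Among the 9 genes of chromatin and histone supply 7 were lower and 2 were not called. The ATPase Atad2, a bromodomain protein, had the lowest ratio, at 8.27 CPM with panobinostat and 67.9 CPM with vehicle (log2 ratio -3.04, interval -3.14 to -2.93). Uhrf1 (9.99 and 62.9 CPM, -2.65), Hells (10.7 and 67.8 CPM, -2.67) and Cdca7 (3.16 and 12.5 CPM, -1.98), which serve the upkeep of DNA methylation, were also lower. So were the histone chaperone genes Nasp (28.1 and 147.9 CPM, -2.40) and Chaf1b (14.1 and 30.3 CPM, -1.10). Chaf1b encodes a subunit of chromatin assembly factor 1. Slbp, which binds the stem-loop of replication-dependent histone mRNAs, stood at 28.5 CPM with panobinostat and 78.7 CPM with vehicle (-1.46). Not called were Casp8ap2, which acts in histone pre-mRNA processing (30.1 and 46.5 CPM, -0.63, interval -0.69 to -0.56), and the ubiquitin ligase Ubr7 (17.7 and 20.4 CPM, -0.20, interval -0.30 to -0.11). The remaining genes, the repressor E2f8 (4.17 and 23.5 CPM, -2.50, interval -2.65 to -2.35) and the WD-repeat gene Wdr76 (3.52 and 11.7 CPM, -1.74, interval -1.91 to -1.57), were both lower.

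Outside the 40 genes, 68 further replication genes, also chosen with earlier results known, were compared. Of these 57 passed the floor: 35 were lower, 1 was higher and 21 stayed under 2-fold, with a median log2 ratio of -1.28. Among all genes past the floor 11.0% were lower and 9.85% were higher by the same rule. As unscaled mean UMIs per cell, 16 were lower and 3 higher of 51 past the floor, where 4.53% of all genes were lower, 24.3% were higher and the median was 0.49. Among those past the floor the lowest were Mcm10, a helicase activator (0.403 CPM with panobinostat and 11.9 CPM with vehicle, log2 ratio -4.88), the thymidine kinase Tk1 (2.09 and 49.5 CPM, -4.56), Mcm3 (8.13 and 105.0 CPM, -3.69) and the checkpoint kinase Chek1 (1.68 and 14.2 CPM, -3.08). Mcm7, which completes the Mcm ring, was lower too (26.8 and 98.5 CPM, -1.87). The highest were Rb1, the retinoblastoma repressor of E2F, which was the gene called higher (77.3 CPM with panobinostat and 23.0 CPM with vehicle, log2 ratio 1.75, interval 1.68 to 1.82), the polymerase delta subunit Pold4 (95.9 and 55.2 CPM, 0.80), the origin recognition gene Orc3 (22.8 and 16.8 CPM, 0.45) and the clamp loader Rfc1 (66.2 and 69.8 CPM, -0.08). By role, 6 of 7 helicase genes past the floor were lower, 4 of 7 licensing genes, 9 of 17 polymerase and clamp genes, 2 of 5 fork genes, 5 of 8 nucleotide genes, 4 of 6 chromatin genes and 5 of 7 regulators.

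**Figure D2:**
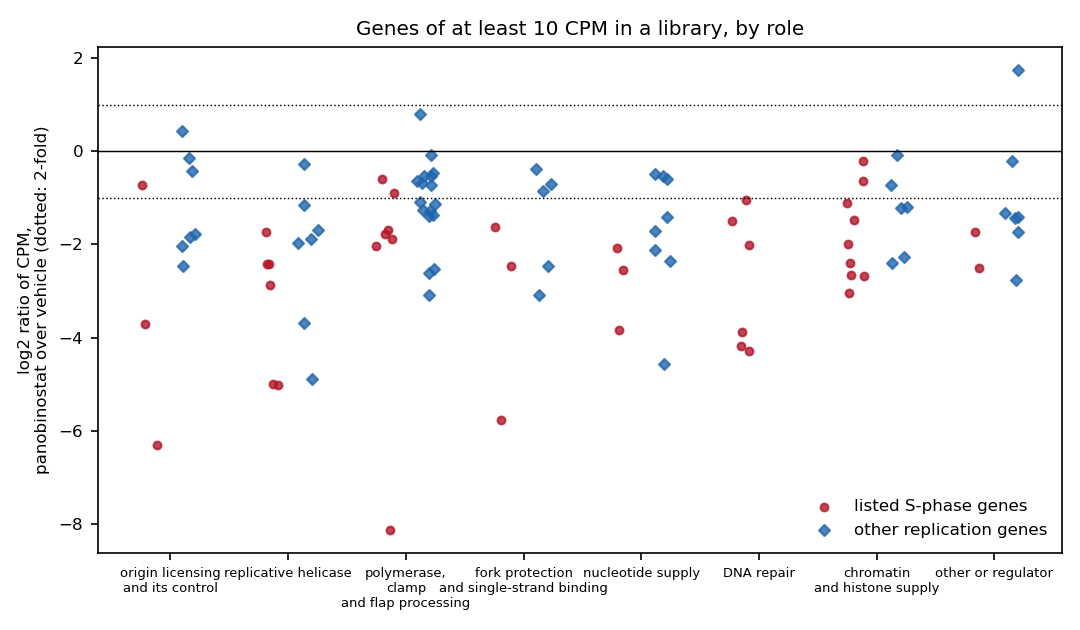
Log2 ratio of CPM, panobinostat over vehicle, for the genes of at least 10 CPM in a library, by role, with the 39 listed S-phase genes that pass as red circles and 57 other replication genes as blue diamonds. All red circles lie below 0, and 1 blue diamond, Rb1 at 1.75, lies above the dotted line at 2-fold.

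Single cells showed how these levels were spread. All cells were brought to 18663 UMIs by random thinning, and 60 panobinostat and 453 vehicle cells with fewer were set aside. The loss among vehicle cells was uneven. Thinning kept 2401 of 2854 vehicle cells, but 533 of the 727 with at most 5 UMIs of the core mitotic genes described below. It kept 31 of the 61 vehicle cells with no such UMI. The vehicle values after thinning therefore lean towards cells with more mitotic UMIs, by an amount that was not tested. A thinned panobinostat cell held a median of 9 UMIs of the 40 genes together, with a highest value of 26. A thinned vehicle cell held a median of 39 with a highest value of 151, and 1452 of 2401 vehicle cells (60.5%) held more than any panobinostat cell did. The 10th percentile was 5 with panobinostat and 6 with vehicle, so the low ends lay close together among the cells kept.

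**Figure D3:**
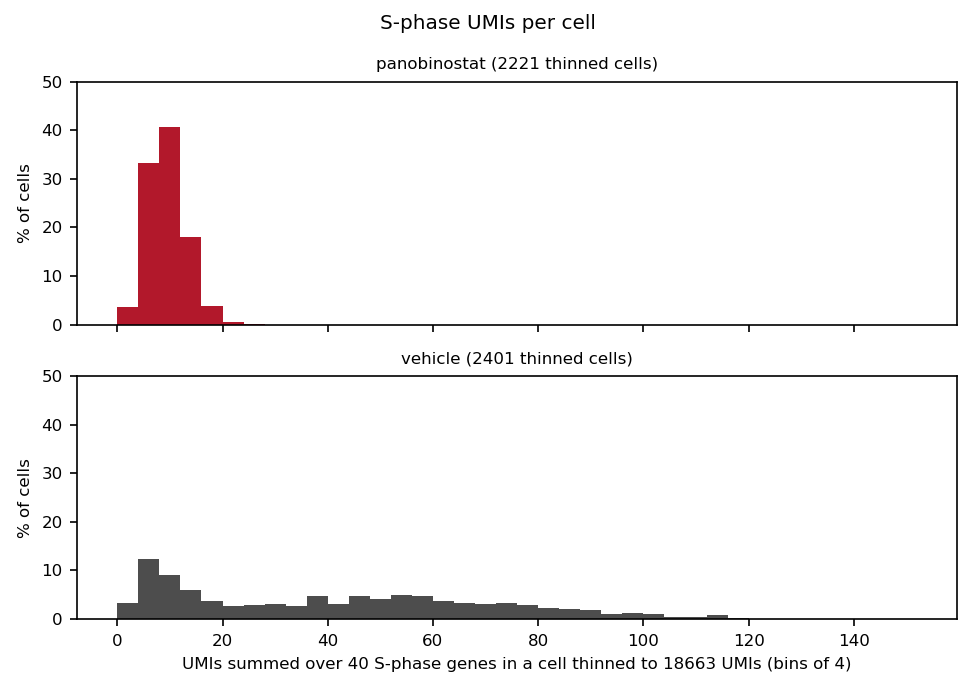
Share of cells by the UMIs they hold over the 40 S-phase genes, after thinning to 18663 UMIs, for 2221 panobinostat cells (top) and 2401 vehicle cells (bottom), in bins of 4 UMIs. Panobinostat cells form 1 narrow peak with a median of 9, while vehicle cells run from that range to 151.

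The share of thinned cells with at least 1 UMI followed the levels. For Pclaf it was 1.53% with panobinostat (exact binomial interval 1.06 to 2.13) and 68.7% with vehicle (66.8 to 70.5), against 3.29% and 70.5% before thinning. For Mcm5 it was 3.11% with panobinostat (2.43 to 3.92) and 50.5% with vehicle (48.5 to 52.5), against 6.66% and 58.3% before thinning, and for Cdc45 it was 0.810% and 21.8%, against 1.93% and 30.4%. The other helicase genes were seen in 12.3% (Mcm2), 22.1% (Mcm4), 26.6% (Mcm6) and 14.8% (Gins2) of panobinostat cells and in 53.5%, 60.2%, 67.1% and 39.9% of vehicle cells, against 26.5%, 42.2%, 48.0% and 32.2% of panobinostat and 64.6%, 69.7%, 74.6% and 52.0% of vehicle cells before thinning. Pcna was seen in 26.8% of panobinostat and 54.4% of vehicle cells (48.8% and 66.0% before thinning), Tyms in 28.2% and 63.1% (52.4% and 72.2%), Rrm2 in 19.5% and 74.7% (39.5% and 79.2%) and Slbp in 40.6% and 67.8% (67.9% and 76.3%). No cell type that lacks these genes was available in the sort as a background, and the share owed to free RNA was not tested.

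What remained with panobinostat was spread over many cells. The 163 UMIs of Mcm5 lay in 152 of 2281 cells with at most 2 in a cell, and the 26 UMIs of Cdc6 in 26 cells. The 88 UMIs of Pclaf lay in 75 cells with at most 5 in a cell. Leaving out the 15 panobinostat cells with 20 or more UMIs over 20 core mitotic genes, an alternative chosen after seeing the data, kept 34 of the 40 genes lower. These are 0.658% of the panobinostat cells, so few that leaving them out could hardly change a call. The count therefore does not bear on how the transcripts were spread. The core mitotic genes, which include Mki67, Top2a and Ccnb1, summed to 120.2 CPM with panobinostat and 2126 CPM with vehicle.

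The vehicle library thus mixed cells with very different S-phase levels, and these levels moved with the mitotic UMIs of the cell. In the 94 thinned vehicle cells with 0 core mitotic UMIs the 40 genes summed to 393.3 CPM (exact Poisson interval 364.5 to 423.8). With 1 to 4 mitotic UMIs the sum was 579.7 CPM over 603 cells, with 5 to 19 it was 1609 CPM over 430 cells, with 20 to 59 it was 3570 CPM over 597 cells and with 60 or more it was 3027 CPM over 677 cells. In thinned panobinostat cells the same sum was 473.0 CPM with 0 mitotic UMIs (325 cells), 480.6 CPM with 1 to 4 (1690 cells) and 492.7 CPM with 5 to 19 (205 cells). The 1 panobinostat cell with 20 to 59 stood at 1072 CPM (interval 655 to 1655). Across cells of a library, which share its cultures and depth, Spearman's rho between the S-phase and the mitotic sum was 0.02 over 2221 panobinostat cells and 0.70 over 2401 vehicle cells, given as a description. Panobinostat cells spanned a far narrower range of mitotic UMIs, so the low rho does not show that the sums are unlinked there.

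The genes differed in where among vehicle cells they were highest. In 33 of 40 the highest level lay in cells with 20 to 59 mitotic UMIs and in 7, which are Pclaf, Rrm1, Tyms, Blm, Brip1, Rad51ap1 and Usp1, in cells with 60 or more. The level with 60 or more was lower than with 20 to 59, with intervals apart, for 24 genes, and the intervals overlapped for the other 16, those 7 included. These counts were not made over all genes, so they do not show a trait particular to the listed genes. Ung was the extreme, at 4.83 CPM in cells with 60 or more mitotic UMIs and 25.2 CPM in cells with 20 to 59. Cdc6 stood at 17.7 and 43.7 CPM in the same classes and Chaf1b at 34.1 and 58.6 CPM. Ung and Cdc6 are known as genes of the G1/S border and early S phase.

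**Figure D4:**
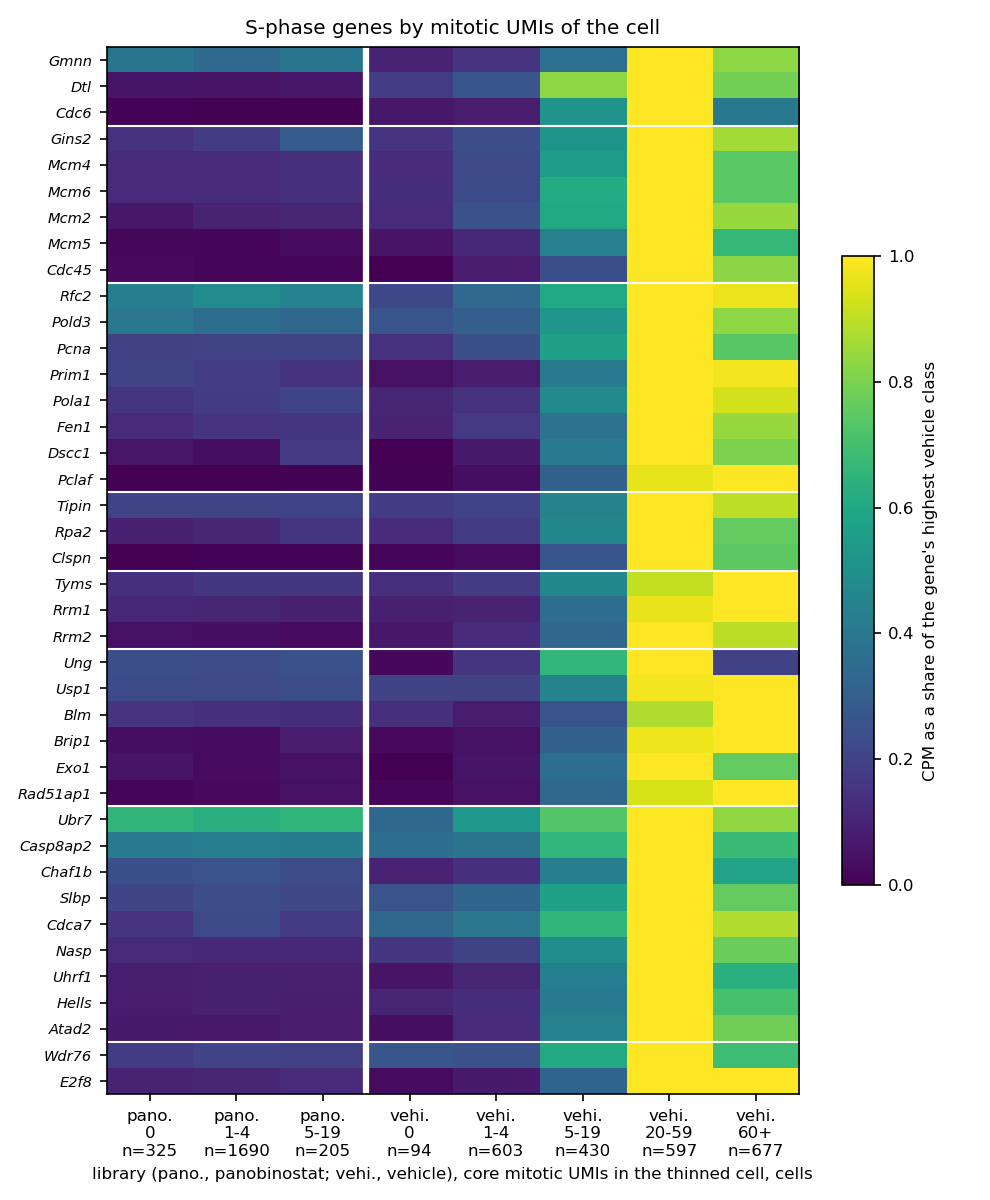
Level of each S-phase gene (rows, by role) in thinned cells classed by their core mitotic UMIs, with 3 panobinostat classes on the left and 5 vehicle classes on the right, as a share of the gene's highest vehicle class (1 panobinostat cell with 20 or more is not drawn). The summed level is 473.0 to 492.7 CPM over the panobinostat classes, and 33 of 40 genes peak in the vehicle class of 20 to 59 mitotic UMIs. Peaks were not counted over all genes.

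The comparison was then repeated against vehicle cells without mitotic UMIs. Only 61 of 2854 vehicle cells had 0 UMIs over the 20 core mitotic genes, with a median of 19290 UMIs per cell and 1152313 UMIs in all. Such cells are picked by genes that vary with the S-phase genes, so the values are a description, and the panobinostat cells are the same as above. Of the 40 genes 18 passed the floor, 0 were lower and 3 were higher, where 7.78% of all 8744 genes past the floor were lower and 11.6% were higher. The median log2 ratio was 0.51 for these 18 genes, of which 5 passed through their panobinostat level alone and 0 through their vehicle level alone, against 0.01 for all genes past the floor. Without a floor the medians were 0.41 for the 40 genes and 0.54 for all genes where a gene with 0 vehicle UMIs ranks highest, and 0.15 and -0.46 where vehicle counts of 0 and panobinostat counts under 3 are set to 3, so whether the listed genes lie above or below the rest depends on how such counts are treated. Pcna stood at 15.8 CPM with panobinostat and 15.6 CPM in these vehicle cells (log2 ratio 0.01), Slbp at 28.5 and 28.6 CPM (-0.01) and Rrm1 at 15.8 and 13.9 CPM (0.18). The vehicle values rest on few molecules, from 0 UMIs for Cdc6, Dscc1, Exo1 and Rad51ap1 to 47 for Nasp, and no fold is given for those 4, since 3 counts equal 2.60 CPM in these cells and all 4 were below that with panobinostat.

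Geminin, primase and a chromatin assembly subunit were the genes called higher there. Gmnn stood at 40.3 CPM with panobinostat and 11.3 CPM in the 61 vehicle cells (13 UMIs, log2 ratio 1.84, interval 1.06 to 2.75). Prim1 stood at 11.4 and 1.74 CPM (2 UMIs, a ratio of 2.72 with an interval of 0.86 to 5.77), and Chaf1b at 14.1 and 5.21 CPM (6 UMIs, 1.44, interval 0.31 to 2.89). Prim1 and Chaf1b passed the floor through their panobinostat level alone. The call of Chaf1b ended when panobinostat cells were also limited to those without mitotic UMIs (0.93).

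A wider choice of vehicle cells rested on more UMIs. The sets of 531 and 727 cells below each hold the 61 cells, and the panobinostat cells are the same, so these comparisons are not independent. The 531 vehicle cells without UMIs of Mki67, Top2a, Ccnb1, Ccnb2, Cdc20 and Plk1 held 14909698 UMIs, and the 727 with at most 5 core mitotic UMIs, a limit set after seeing that this was the median of panobinostat cells, held 18328752. Against the 531 cells 3 of 22 genes past the floor were lower (6.65% of all genes) and 3 were higher (9.20%). Against the 727 cells 4 of 24 were lower (6.83% of all genes) and 3 were higher (8.97%), with a median log2 ratio of -0.12 both for the 24 genes and for all 40, against -0.01 for all genes past the floor, so the sign of the median depends on which vehicle cells are taken. The mitotic genes then summed to 120.2 CPM with panobinostat and 105.1 CPM in these vehicle cells. The cells were picked by these same genes, so the nearness of the sums follows from the choice. Log2 ratios of single mitotic genes ran from -3.95 to 0.96. The limit was set on unscaled UMIs, with a median of 23288 UMIs per cell here and 42394 with panobinostat.

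Against the 727 cells the genes called lower were Pclaf (0.845 CPM with panobinostat and 12.6 CPM in these vehicle cells, log2 ratio -3.89, interval -4.26 to -3.53), Dtl (2.38 and 10.9 CPM, -2.20), Rrm2 (12.7 and 36.1 CPM, -1.50) and Mcm2 (6.82 and 16.3 CPM, -1.26). Of the 6 helicase genes Mcm2 alone was called, and ratios ran from -2.42 for Mcm5 (1.56 and 8.35 CPM, interval -2.74 to -2.09, below the floor) to -0.16 for Gins2 (9.16 and 10.2 CPM, interval -0.38 to 0.08). The helicase ratios were below 0 for 6 of 6 genes here and for 3 of 6 against the 61 cells. Over all genes, with no floor, 8147 ratios were below 0 and 11210 above here, and 6608 and 12685 against the 61 cells. Cdc6, also below the floor, had a ratio of -2.98 (26 and 36 UMIs, 0.250 and 1.96 CPM). Gmnn (40.3 and 15.2 CPM, 1.41, interval 1.23 to 1.59), Prim1 (11.4 and 4.31 CPM, 1.41, interval 1.08 to 1.75) and Chaf1b (14.1 and 6.82 CPM, 1.05, interval 0.79 to 1.33) were higher. Of the called genes, Prim1 and Chaf1b passed the floor through panobinostat alone, and Pclaf, Dtl and Mcm2 through vehicle alone. Rrm2 and Gmnn passed it in both. Within a role the genes differed: of nucleotide supply, Rrm2 was lower as given above, while Tyms (17.6 and 18.2 CPM, -0.05) and Rrm1 (15.8 and 12.9 CPM, 0.28) were not called. Of the polymerase and clamp genes, Pclaf was lower and Prim1 higher, while Fen1 (9.18 and 9.11 CPM, 0.01), which missed the floor, and Pcna (15.8 and 18.4 CPM, -0.22) were not called.

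**Figure D5:**
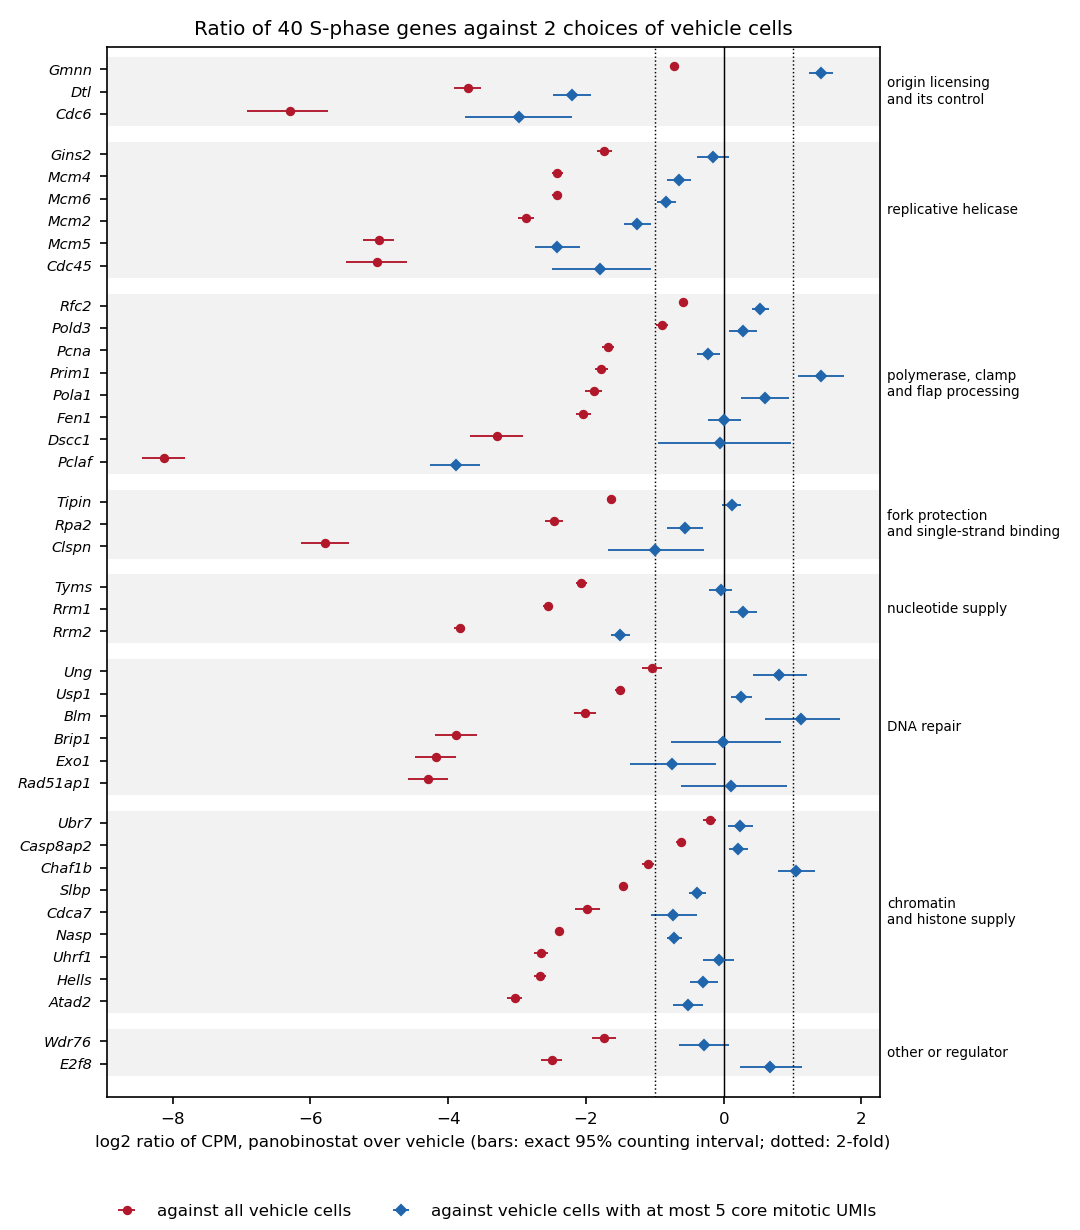
Log2 ratio of CPM, panobinostat over vehicle, with exact 95% counting intervals, for each S-phase gene against all 2854 vehicle cells (red circles) and against the 727 with at most 5 core mitotic UMIs (blue diamonds). The blue diamonds cluster around 0 for most genes, with Pclaf, Cdc6, Mcm5 and Dtl left of -2 and Gmnn, Prim1, Blm and Chaf1b right of 1.

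Some of these 727 vehicle cells still held many S-phase UMIs: after thinning 19 of 533 (3.56%) held more than the highest panobinostat cell. Taking only the 486 of the 727 that also had no UMI of Mcm3 or Tk1, replication genes outside the 40 (likewise chosen after seeing the data), left 1 of 345 thinned cells above that value. A choice by replication genes can itself take out cells with many S-phase UMIs, so these values are a description. Against these 486 cells Rrm2 was lower (12.7 CPM with panobinostat and 31.7 CPM in these vehicle cells, log2 ratio -1.32, interval -1.48 to -1.15), where 6.67% of all genes past the floor were lower. Pclaf and Dtl no longer reached the floor, with ratios of -3.11 (interval -3.55 to -2.66) and -1.58 (-1.94 to -1.21), and Mcm2 stayed under 2-fold (-0.79). Gmnn (1.68), Prim1 (2.02) and Chaf1b (1.40) were higher here too, where 9.10% of all genes were. The panobinostat cells are the same and the vehicle cells are part of the 727, so this is not a separate finding. Prim1 and Chaf1b again passed the floor through panobinostat alone. Mcm5 was at -1.46 (interval -1.92 to -0.98), below the floor, and 5 of 6 helicase ratios were below 0, with Gins2 at 0.13. Over all genes, with no floor, 7872 ratios were below 0 and 11468 above.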

How the data were processed

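Measured were 2 libraries of single cells, made with 10x Chromium 3′ chemistry and an Illumina NextSeq500, per the labels' protocols. The submitters' processing notes name Cell Ranger 3.0.1 and mm10, and filters and annotation are not given in the sources used here. Raw UMI counts were deposited by the authors for 19394 genes and 5135 cells, with no normalization, and the mark at the end of each deposited barcode (control or drug name) gave the library. Replicates are absent, so no p-value was computed and intervals cover counting error only.

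UMIs were summed over cells and scaled to 1000000 (CPM). The ratio is panobinostat over vehicle with a Clopper-Pearson 95% interval, and the rule of 2-fold, interval and 10 CPM was applied to all genes. All 40 genes were to be named, with 8 other replication genes by lowest and highest ratio, any called higher, and Mcm3 and Mcm7. Members, roles and lists were chosen with earlier results of these data known. Random thinning drew 18663 UMIs per cell (the 10th percentile over both libraries). The rule was tested on simulated counts that carry counting error only, which says nothing of spread between libraries. Alternatives used TMM factors (edgeR 4.0.16), DESeq2 1.42.0 size factors, other scalings, floors, folds and cells. Doublets were not called here. Scripts ran in R 4.3.3 and in Python 3.11.15 with scipy 1.17.1 and numpy 2.4.6.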

Additional observations from a re-analysis of the deposited data

How the results depend on the processing

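With all vehicle cells, the count of 34 lower S-phase genes stayed between 29 and 38 and that of higher genes at 0 under every alternative except a floor of 50 CPM, where 15 of 17 were lower. No called gene turned its direction. The median log2 ratio of -2.40 was -2.51 with TMM factors, -2.52 with DESeq2 factors, -2.33 centred on the median gene, -1.89 as mean UMIs per cell and -2.30 over panobinostat cells without core mitotic UMIs. For the other replication genes the median of -1.28 was -1.42 with TMM factors, -1.43 with DESeq2 factors, -0.67 as mean UMIs per cell, -0.96 with a floor of 50 CPM, -1.38 in thinned cells and -1.39 over panobinostat cells without core mitotic UMIs. Of these genes 16 were lower and 3 higher as mean UMIs per cell, 9 lower with a floor of 50 CPM, 22 lower at 3-fold and 2 higher at 1.5-fold.

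Against vehicle cells without mitotic UMIs, 0 S-phase genes were lower and 3 higher. As mean UMIs per cell, with no scaling to the total, 18 of 21 past the floor were higher, with a median of 1.75. That scale carries the difference in depth, a median of 42394 UMIs per cell with panobinostat and 19290 in the 61 vehicle cells. The share over all genes on that scale is not given here, so this count is not a result about the listed genes. The lower count was 1 as a mean over cells, with a floor of 1 CPM or none, with at most 1 core mitotic UMI, and with at most 5 and none of Mcm3 or Tk1. It was 2 at 1.5-fold (6 higher), 3 with the short mitotic list and 4 with at most 5 core mitotic UMIs. With a floor of 50 CPM no gene was left (0 higher). The broad mitotic list left 2 vehicle cells (0 higher), too few for a median. The causes were not tested. No paired analysis was possible because each treatment has 1 library. What limits these values is the single library per treatment and, for the 61 cells, their 1152313 UMIs.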
